A study of Mus musculus with 16 samples.

Results

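In mouse hematopoietic progenitors that lack an upstream enhancer of Gata2, 722 genomic regions were open in every library with re-expressed GATA2 and were not among the ranked peaks of any other library. They were 722 of the 90549 regions (0.797%) formed from 16 ATAC-Seq libraries. They were chosen by the presence of peaks: from each library the 49000 most significant peaks on chromosomes 1 to 19 and X were kept, overlapping peaks were merged, and a region had to hold a peak in 4 of 4 GATA2 libraries and in 0 of the 12 others. The number of regions, their ranks in the GATA2 libraries and their absence from the other ranked lists follow from that choice and are given as description.

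The cells were progenitors of mouse fetal liver that proliferate under a HoxB8 protein controlled by estrogen, and they were grown with β-estradiol. hi-77+/+ cells have the far-upstream Gata2 enhancer that their name refers to on both alleles and hi-77-/- cells have it on neither, so hi-77-/- cells retain a reduced amount of their own GATA2. All cells were infected with a retrovirus that also encodes GFP. The labels describe isolation of GFP-positive cells, whereas the ATAC-Seq method in the paper names no sort. The virus was empty in the groups hi-77+/+ empty and hi-77-/- empty. In the other groups it gave hi-77-/- cells HA-tagged murine GATA2, or 9aa-Ins, a pathogenic form in which additional residues separate the zinc fingers, and each of the 4 groups had 4 libraries. GATA2 was therefore supplied from a viral promoter and not from its own locus, and the labels name no separate lines within a genotype, so hi-77+/+ and hi-77-/- libraries also differ by cell line. The labels number the replicates and the study calls them biological, but separate cultures are not described, so p-values measure the spread between these libraries.

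GATA2 is a zinc finger transcription factor that is required for hematopoietic stem and progenitor cells and for mast cells. It binds DNA at WGATAR (W is A or T, R is A or G), often beside an E-box bound by TAL1, and most of its known sites are far from promoters. ATAC-Seq uses a transposase that inserts adapters where DNA is accessible, so a peak marks open chromatin and does not show which protein is bound.

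The lists on chromosomes 1 to 19 and X held 49852 to 77687 peaks in the GATA2 libraries and 63924 to 111743 in the others. Because the files hold peaks and not reads, the depth is unknown. Equal list length did not mean an equal threshold: at rank 49000 the −log10 p of a peak was 5.35 to 7.43 in GATA2 libraries and 7.38 to 11.7 in the others. With 1 cut for all libraries instead, −log10 q of at least 5, 299 regions met the rule in place of 722. Of these 299, 84.3% held WGATAR. Beyond such alternatives, the part of this difference in the results below was not tested. Promoter peaks lay at 6 of 8 hematopoietic progenitor markers (Ptprc, Kit, Cd34, Myb, Runx1 and Spi1) in all 16 libraries and at Hoxa9 and Cd48 in none. None of 5 hepatocyte markers had one. Of 5 stromal and endothelial markers, 3 had one, Pdgfra in 16, Col1a1 in 15 and Pecam1 in 14 libraries, and Col3a1 and Cdh5 had none. Of 4 T cell markers, Cd3d had one in all 16 and the other 3 had none.

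The sequences below reach 100 bases to each side of the best-ranked summit of 5 regions and are written 5′ to 3′ on the plus strand of GRCm38, with WGATAR on either strand in capitals (its reverse complement reads YTATCW, with Y for C or T). The first 4 are the regions that ranked best, and the fifth lies at Csf2rb, which the study, as it does Kit, names as activated by GATA2.
Kit, 114 kb upstream (chr5:75460589-75460789): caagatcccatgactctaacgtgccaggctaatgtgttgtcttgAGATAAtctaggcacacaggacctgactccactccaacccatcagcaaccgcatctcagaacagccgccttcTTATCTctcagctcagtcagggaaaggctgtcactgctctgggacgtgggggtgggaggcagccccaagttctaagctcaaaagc
Emx2, 53.6 kb upstream (chr19:59404714-59404914): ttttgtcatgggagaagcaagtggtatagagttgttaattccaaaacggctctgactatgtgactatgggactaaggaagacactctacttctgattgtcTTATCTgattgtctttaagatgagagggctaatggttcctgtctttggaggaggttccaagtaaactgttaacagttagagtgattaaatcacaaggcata
Mtss1 intron (chr15:59012886-59013086): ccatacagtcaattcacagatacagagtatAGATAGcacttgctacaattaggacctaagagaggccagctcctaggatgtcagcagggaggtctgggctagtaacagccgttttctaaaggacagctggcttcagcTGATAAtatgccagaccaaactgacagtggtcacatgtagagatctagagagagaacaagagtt
Sacm1l intron (chr9:123577650-123577850): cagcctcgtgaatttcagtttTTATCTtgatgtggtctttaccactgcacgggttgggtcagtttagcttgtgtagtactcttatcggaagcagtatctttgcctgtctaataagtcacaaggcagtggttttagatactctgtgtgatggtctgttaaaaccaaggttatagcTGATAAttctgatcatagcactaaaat
Csf2rb, 7.24 kb upstream (chr15:78318409-78318609): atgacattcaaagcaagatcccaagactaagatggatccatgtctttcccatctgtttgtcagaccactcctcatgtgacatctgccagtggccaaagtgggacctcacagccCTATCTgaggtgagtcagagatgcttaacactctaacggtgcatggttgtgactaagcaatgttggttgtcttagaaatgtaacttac

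The 5 windows each held WGATAR. In the Kit region 114 kb upstream the nearer of 2 matches was centred 18.5 bp from the summit, and in the Emx2 region the single match was 2.5 bp from it. In the Mtss1 window an E-box (CAGCTG) preceded TGATAA at the spacing of a composite element, defined here as CANNTG, 6 to 14 bases of any kind, and WGATAR. The 2 matches of the Sacm1l window lay at its edges, the nearer 76.5 bp from the summit.

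WGATAR, which the rule did not use, was present in most of these regions. Of the 722 regions, 600 (83.1%) held it within 100 bp of the summit, against 26.5% of all regions. The share was 17.0% in 460 regions open only with 9aa-Ins (0.508% of all regions, by the same rule), 16.9% in 77 open only in hi-77-/- empty (0.085%), 21.1% in 946 open only in hi-77+/+ empty (1.04%) and 18.2% in the 21169 regions open in all 16 libraries. Among regions more than 3 kb from a transcription start site (TSS), called distal here, the shares were 84.1% (527 of 627) open only with GATA2, 29.6% of all regions and 16.3% open only with 9aa-Ins. The same letters in another order, WGTAAR (W and R as above), occurred in 31.7% of the distal GATA2-only regions and 31.1% of all distal regions. Median GC content of the windows was 47.3%, against 50.7% over all regions and 47.0% in regions open only with 9aa-Ins. Regions are not replicates, so these shares carry no test.

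**Figure D1:**
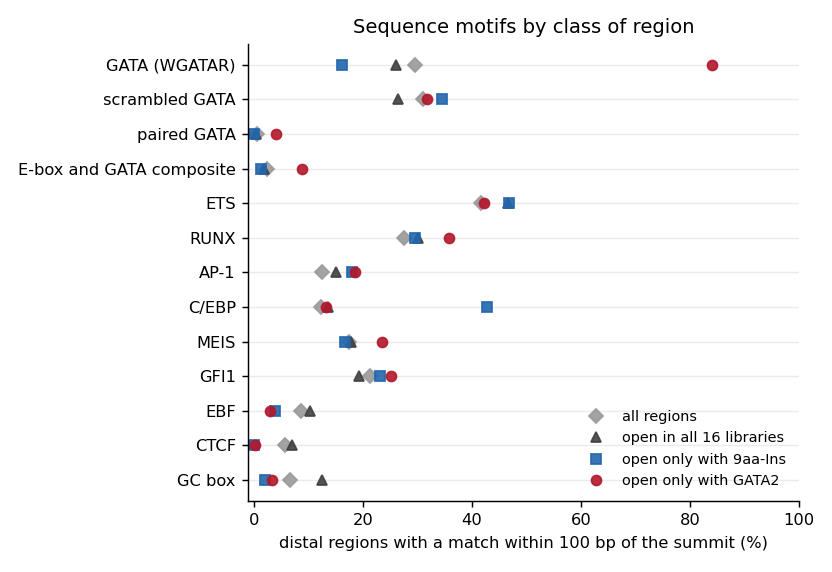
Share of distal regions (%) with each letter pattern in the window of 100 bp on each side of the summit, for regions open only with GATA2, open only with 9aa-Ins, open in all 16 libraries, and all regions. WGATAR stands at 84.1% with GATA2 against 16.3%, 26.0% and 29.6% in the others, whereas the scrambled WGTAAR is between 26.5% and 34.5% in the 4 classes.

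AGATAA was the most frequent of the WGATAR words, in 53.3% of distal GATA2-only regions against 11.4% of all distal regions. TGATAA was in 28.9% (8.6% of all), AGATAG in 21.7% (8.5%) and TGATAG in 15.2% (5.9%). Several copies were common: 41.8% of the distal GATA2-only regions held 1 match, 29.5% held 2 and 12.8% at least 3, whereas 1.2% of all distal regions held at least 3. A composite E-box and WGATAR element, the arrangement bound by GATA factors together with TAL1, was in 65 regions (9.00%), against 2.0% of all regions and 1.1% of those open only with 9aa-Ins. A pair of WGATAR matches separated by at most 5 bases was in 29 (4.0%), against 0.5% of all regions. Both elements contain WGATAR, so their shares rise with that of WGATAR itself. Another class of 87 regions had a ranked peak in all GATA2 and all 9aa-Ins libraries and in none with an empty vector. It held the composite in 8.05% and the pair in 4.60%, so neither was particular to GATA2-only regions.

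Patterns of other hematopoietic factors differed less. On both strands, RUNX (TGTGGT) was in 35.9% of distal GATA2-only regions and 27.6% of all distal regions, AP-1 (TGANTCA) in 18.5% and 12.6%, and MEIS (TGACAG) in 23.4% and 17.4%. ETS (AGGAAG) was in 42.3% and 41.7%, and the E-box CANNTG alone in 72.6% and 70.4%. The myeloid C/EBP pattern (TTGCNNAA) was in 13.2% of the GATA2-only regions and 12.4% of all, but in 42.9% of those open only with 9aa-Ins. GFI1 (AATCNC) stood at 25.2% against 21.3% and MYB (AACNG) at 77.7% against 73.1%. Patterns that were less frequent than over all regions were EBF (CCCNNGGG; 2.9% against 8.7%), the GC box (GGGCGG; 3.3% against 6.6%), IRF (1.0% against 2.3%) and that of the insulator protein CTCF (0.2% against 5.7%). In distal regions open only with 9aa-Ins, EBF was in 3.94%, the GC box in 1.97%, CTCF in 0% and AP-1 in 17.98%. For these patterns the difference from all distal regions was therefore not particular to GATA2-only regions. RUNX (29.6%), MEIS (16.7%) and IRF (1.97%) were nearer there to their shares over all distal regions. WGATAR and the E-box are parts of the composite element, so those shares overlap.

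WGATAR was more frequent around the summit, the point of highest accessibility, than in regions open in all 16 libraries. Measured from the summit in each GATA2 library, a match was centred within 25 bp in 38.9%, 40.0%, 41.4% and 40.0% of the GATA2-only regions (mean 40.1% ± 1.02, SD, n = 4). In the same libraries 7.93% to 8.31% of the distal regions open in all 16 libraries had one, and the ranges did not overlap. Around the best-ranked summit the number of matches per 100 distal GATA2-only regions ran from 7.5 to 11.3 in the 10-bp bins centred from -30 to 30 bp, with 11.3 at -20 bp, 9.9 at 0 bp and 7.5 at both -10 and 10 bp. It was 7.0 at -90 bp and 4.0 at 90 bp, so the rise towards the summit was modest and uneven. In regions open in all 16 libraries it was between 1.2 and 1.8 throughout.

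**Figure D2:**
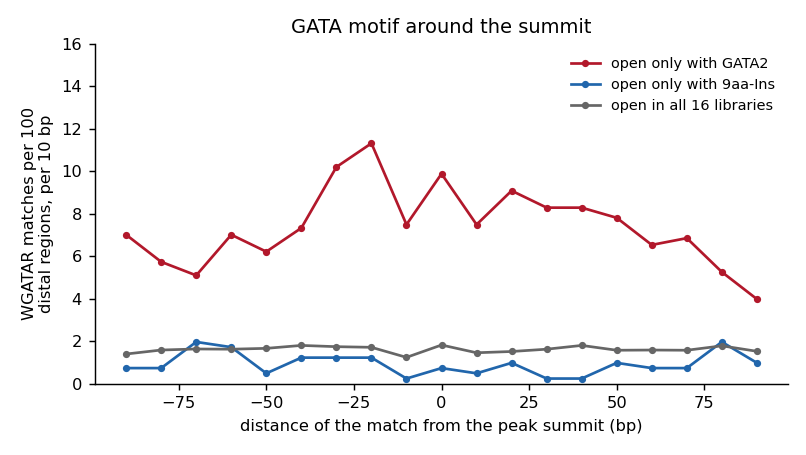
WGATAR matches per 100 distal regions in bins of 10 bp, by distance from the best-ranked summit (bp), for regions open only with GATA2, only with 9aa-Ins and in all 16 libraries. The GATA2-only line runs unevenly between 4.0 and 11.3, with its highest bin at -20 bp, while the line for all 16 libraries stays at or below 1.8.

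The share with WGATAR followed how many libraries of a group shared the peak. Among distal regions absent from the ranked lists of the other groups, it was 50.2% (of 4358) with a peak in 1 GATA2 library, 64.5% (1085) in 2, 74.3% (588) in 3 and 84.1% in 4. With 9aa-Ins in place of GATA2 it was 22.0%, 20.2%, 16.7% and 16.3%. The C/EBP pattern went from 21.1% to 42.9% over the same 9aa-Ins steps and from 9.87% to 13.2% over the GATA2 steps. Among distal regions with a peak in 4 of 4 GATA2 libraries, WGATAR was in 84.1% with no other library, 78.5% with 1 other, 64.5% with 4 others and 26.0% with all 12.

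**Figure D3:**
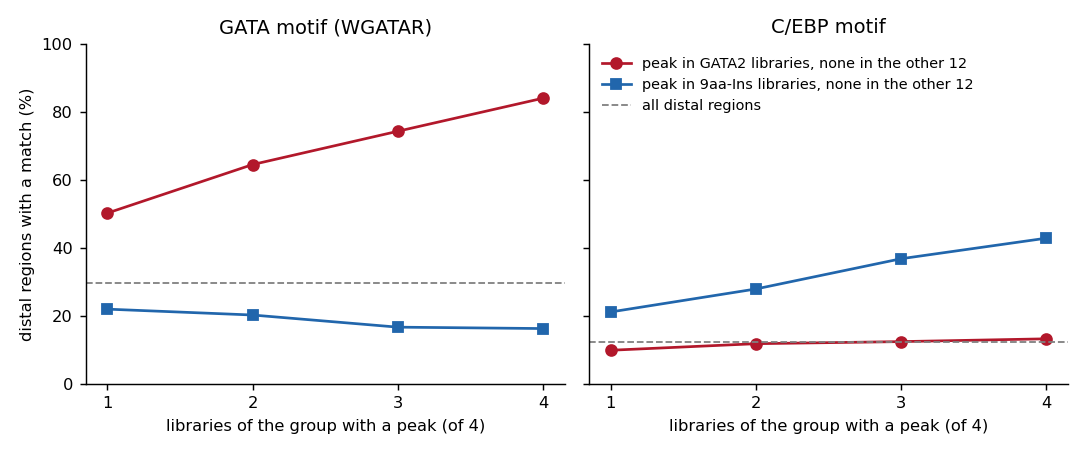
Share of distal regions (%) with WGATAR and with the C/EBP pattern, by the number of libraries of 1 group with a peak and none in the other groups. WGATAR goes from 50.2% to 84.1% over 1 to 4 GATA2 libraries and from 22.0% to 16.3% over 1 to 4 9aa-Ins libraries.

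The GATA2-only regions were mostly distal. Of the 722, 627 (86.8%) lay more than 3 kb from a protein-coding TSS, against 73.3% of all regions, 88.3% of those open only with 9aa-Ins and 47.8% of those open in all 16 libraries. Their median distance to a TSS was 22.3 kb (all regions, 12.7 kb), with quartiles at 7.11 and 61.1 kb, and 117 (16.2%) were beyond 100 kb. By the GENCODE annotation 377 (52.2%) were in introns of protein-coding genes and 271 (37.5%) were intergenic, against 44.7% and 41.0% of all regions. A further 45 were in introns and 3 in exons of noncoding genes, 15 in coding exons, 9 in 3′ UTRs and 2 in 5′ UTRs. Their median length was 303.5 bp (109 to 1153 bp), against 271 bp over all regions, 219 bp for those open only in hi-77+/+ empty, 339.5 bp for those open only with 9aa-Ins and 852 bp for those open in all 16 libraries. Repeats covered most of the window in 5.26% of them and in 10.5% of all regions. The 95 regions within 3 kb of a TSS held WGATAR in 76.8%.

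Most of the regions were weak to moderate peaks of the GATA2 libraries. The median rank of a region over the 4 libraries ran from 9477.5 to 47945, with a median of 30033.5, against 16085 for all 30011 regions with a peak in 4 of 4 GATA2 libraries. Their median rank was 31249.5, 30276, 28150 and 28495.5 in GATA2 replicates 1 to 4, so no replicate held them far higher or lower than the others. The median −log10 p was 9.64, 12.35, 11.31 and 13.56, and the median fold enrichment over the background of the library was 6.35, 7.93, 7.35 and 8.52. Of 2888 best peaks at the regions, 14 were among the first 10000 ranks and 494 (17.1%) were beyond rank 40000. The share with WGATAR differed little between bins of rank. Among distal regions it was 89.3% of 75 at median ranks beyond 10000 and up to 20000, 81.6% of 245 to rank 30000, 84.9% of 251 to rank 40000 and 83.3% of 54 beyond. Other distal regions with a peak in 4 of 4 GATA2 libraries had 34.1%, 31.6%, 30.3% and 28.8% in the same bins. Summits of the 4 libraries spanned a median of 70.5 bp (55 bp for all regions with a peak in 4 of 4 GATA2 libraries), and 203 regions (28.1%) had all 4 within 50 bp.

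**Figure D4:**
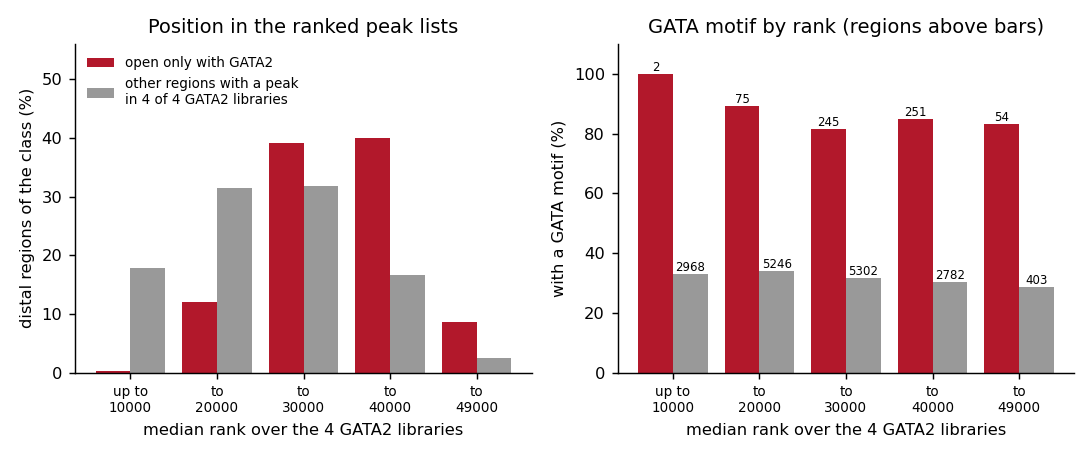
Left, share (%) of distal GATA2-only regions and of other distal regions with a peak in 4 of 4 GATA2 libraries, by median rank over those libraries (1 is the most significant peak). Right, share with WGATAR in each bin, with the number of regions above the bars; it is 81.6% to 100% for GATA2-only regions and 28.8% to 34.1% for the others.

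At the edges of the rule, 669 regions had a peak in 3 of 4 GATA2 libraries and in none of the 12 others, and 287 had all 4 GATA2 peaks and 1 elsewhere. Of the 669, 301 had a peak beyond rank 49000 in the missing library and 368 had none. GATA2 replicate 1, with the shortest list, was the missing library for 224, against 127 to 173 for the others. Of the 287, the extra peak was in hi-77+/+ empty for 126, in 9aa-Ins for 89 and in hi-77-/- empty for 72, and it ranked beyond 40000 in most of them, with a median rank of 43430. WGATAR was in 75.0% of the 669 and 78.0% of the 287. Just inside the rule, the lowest rank of any GATA2 peak was 48979, and the best weak peak of another library had rank 49062.

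The genes below are those with the nearest protein-coding TSS, which is an assignment by distance and no measurement of expression. The 722 regions had 637 nearest genes, 564 of them with 1 region. None was nearest to Gata2, whose cDNA the vector carries.

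Mast cell and basophil genes held 10 GATA2-only regions, at 9 of 24 listed genes and 5.65% of the 177 regions nearest to the list, where 0.797% of all regions were GATA2-only. The 9 were Kit, Cpa3, Mcpt4, Prss34, Tpsab1, Ms4a2, Il1rl1, Cd200r3 and Il13. The list was written with earlier results of these data known. Kit encodes the receptor for stem cell factor, on which mast cells and progenitors depend. Its region 114 kb upstream (chr5:75460322-75460876, intergenic) ranked best of all, at 9690, 9711, 9265 and 7126 in GATA2 replicates 1 to 4, with −log10 p of 26.8, 36.1, 33.7 and 51.8. All 4 ranks were within the first 10000, and outside the ranked lists it had peaks in 9 of the 12 other libraries, in 2 hi-77-/- empty, 4 hi-77+/+ empty and 3 9aa-Ins libraries.

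Of the listed mast cell and basophil proteases, Prss34, Mcpt4, Cpa3 and Tpsab1 had a GATA2-only region, and Mcpt8, Cma1 and Tpsb2 had none. The listed genes Hdc and Fcer1a had none either, under a rule that drops regions with a ranked peak in any other library. At Hdc the paper reports a differentially accessible peak for GATA2 against hi-77-/- empty alone. Prss34, a mast cell and basophil protease, had a region 4.68 kb upstream (chr17:25293414-25293871) with 4 WGATAR and ranks 32468, 14589, 19489 and 21919. Mcpt4, a chymase of connective tissue mast cells, had one 4.32 kb downstream of its TSS (chr14:56057815-56058190) with 2 WGATAR, ranks 36564, 17740, 22913 and 18937 and no peak in any of the 12 other full lists. In both, GATA2 replicate 1 ranked the region lowest. Cpa3, mast cell carboxypeptidase, had one at its promoter (chr3:20242012-20242404, 0.09 kb from the TSS) with a composite element, ranks 23668, 28048, 26244 and 22365, and weak peaks in 4 of the 12 other libraries.

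Cytokine receptor genes held 9 regions, at 7 of 33 genes (3.03% of 297 regions, against 0.797% of all regions). The genes were Kit, Il1rl1, Il2ra and 4 chains of the receptors for GM-CSF, IL-3 and IL-5. Csf2rb encodes the β chain shared by those 3 cytokines, and its region 7.24 kb upstream (chr15:78318438-78318699) ranked 32251, 20818, 25385 and 18989 with a weak peak in 1 of 12 other libraries, at rank 102443 of its list. Csf2ra, the α chain for GM-CSF, had a region (chr19:61207547-61207909) at ranks 46872, 19445, 19654 and 22083, so that replicate 1 stood apart. Il5ra, the α chain for IL-5, had one in an intron (chr6:106732576-106732869) at ranks 21847, 25920, 39636 and 24641. Csf2rb2, the β chain specific to IL-3 in mice, is a near copy of its neighbour Csf2rb, so the assignment of reads within that pair is uncertain.

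Erythroid genes held 3 regions, at 2 of 28 genes (1.85% of 162, against 0.797% of all regions). With so few regions nothing is read from that share. Gata1, the GATA factor of the erythroid, megakaryocyte and mast cell lineages, had one 0.066 kb from a TSS (chrX:7967782-7968174) with no WGATAR, ranks 19129, 39557, 25771 and 23878, and weak peaks in all 4 hi-77+/+ empty, 2 9aa-Ins and no hi-77-/- empty libraries. Its other region, 3.55 kb upstream of that TSS (chrX:7971292-7971591), held a composite element, ranked 32864, 39558, 21330 and 31450 and had a weak peak in 1 hi-77-/- empty library. Zfpm1, encoding the GATA cofactor FOG-1, had a region in an intron (chr8:122309293-122309683) with 4 WGATAR and ranks 22134, 26274, 24573 and 18559. No region lay at Klf1, Epor, Tal1 or the globin genes of the list. Megakaryocyte genes held 3 regions at 3 of 24 genes (1.44% of 208, against 0.797% of all regions), again too few for a reading. They were that of Zfpm1, one near the platelet chemokine gene Pf4 and one in an intron of Rab27b, which encodes a GTPase of granule secretion. The Pf4 region, 3.39 kb from the TSS, had ranks 43878, 36113, 24053 and 48371 and no peak elsewhere.

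Stem and progenitor transcription factor genes held 6 regions, at 5 of 24 genes (1.22% of 493): Zfpm1, Myb, Meis1, Gfi1 and Myc. Against 0.797% of all regions, nothing is read from a share that rests on so few. The Myb region, 27.0 kb upstream, had no WGATAR, ranks 22264, 26429, 40848 and 19913, and weak peaks in 2 libraries of each other group. The Meis1 region, in an intron of this homeobox gene, had 2 WGATAR, ranks 27907, 24154, 30973 and 19993, and weak peaks in 2 hi-77+/+ empty libraries. The Gfi1 region, in an intron of the neighbouring Evi5, ranked 47618, 36143, 26651 and 22618.

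The B lymphoid list, the monocyte, neutrophil and dendritic list and the G protein-coupled receptor list held shares below the 0.797% of all regions. With so few regions nothing is read from them. None of the 20 B lymphoid genes had a GATA2-only region among 130 regions, and the monocyte, neutrophil and dendritic list had 2 among 386 (0.52%), at Id2 and Cebpb. The Id2 region, 132 kb upstream, held 3 WGATAR and had no peak in the 12 other full lists. G protein-coupled receptor genes had 2 among 310 (0.65%), at the prostaglandin E receptor gene Ptger3 and at Gpr34, both without a peak elsewhere. Of 9 genes selected from the larger number that the study names as activated by GATA2, 4 had 7 regions among 110 (6.36%): Kit, Gata1, Csf2rb and Il1rl1. Hdc, Far2, Cnr2, S1pr1 and S1pr4 had none. The rule drops any region with a ranked peak in another library, hi-77+/+ empty included, so this is not an absence of opening. Against hi-77-/- empty alone, the paper reports differentially accessible peaks with GATA2 at Hdc and Far2. The 20 genes selected from those named as repressed had none among 151, a number of regions at which the 0.797% of all regions would also leave few. Those lists were chosen on RNA of the same cell system and are not independent evidence of a direction.

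Outside the lists, the best-ranked regions lay at genes of varied function. The homeobox gene Emx2 had the second and the fifth, 53.6 and 56.1 kb upstream (chr19:59404582-59405521 and chr19:59401568-59402616). The first of them ranked 8153, 10836, 8068 and 12035 and the other 12698, 9542, 15766 and 12034, and both had weak peaks in 7 of 12 other libraries. An intron of Mtss1, which encodes a membrane and actin binding protein, held a region (chr15:59012711-59013538) at ranks 7469, 11436, 10778 and 10160, with weak peaks in 10 of 12 other libraries. An intron of Sacm1l, a phosphoinositide phosphatase gene, held one (chr9:123577438-123578136) at ranks 11471, 10537, 11236 and 9514 with a weak peak in 1. The region 12.4 kb upstream of Prpsap1, with ranks 9273, 12048, 14477 and 14757, and that near Trcg1 had no peak in any of the 12. The region in an intron of Eif3h, a translation factor gene, was the only one of the best 12 without WGATAR. The other 4 of the best 12 were at Papss2, Rpl14, Ctdspl and Agap1.

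Some loci held several regions. The gene with most was Zfp608, encoding a zinc finger protein, with 4 of its 56 regions, all more than 100 kb upstream and with weak peaks in 2 to 7 of the 12 other libraries. Glb1l2 had 3 of only 4 regions (ranks 14271, 32703, 16333 and 21333 at its promoter), of which 2 had no peak in the 12 other full lists. Ano6, a lipid scramblase gene, Mgat5, a glycosyltransferase gene, Fyb, an adaptor of hematopoietic cells, and Kcnrg had 3 each. A further GATA2-only region lay within 10 kb of 75 of the 722 (10.4%) and within 50 kb of 133 (18.4%).

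How well replicates of a group matched in such regions was described by leaving out each library in turn. The regions were chosen again in the other 15, and the share of them with a ranked peak in the library left out was its value. It was 76.3%, 80.8%, 85.1% and 83.3% in the GATA2 libraries (mean 81.4% ± 3.80, SD, n = 4). It was 1.63%, 2.96%, 1.37% and 3.73% in hi-77-/- empty (2.42% ± 1.12, SD, n = 4), 5.25%, 5.00%, 3.99% and 2.56% in hi-77+/+ empty (4.20% ± 1.22, SD, n = 4) and 0.960%, 3.73%, 3.73% and 3.99% in 9aa-Ins libraries (3.10% ± 1.43, SD, n = 4). All GATA2 libraries were above all others. The mean of the GATA2 libraries was 79.0 percentage points above that of hi-77-/- empty, 77.2 above hi-77+/+ empty and 78.3 above 9aa-Ins. Each difference had p = 0.0286 in a two-sided exact permutation test, and 0.0286 after adjustment over the 3 comparisons. That p is the smallest that 4 against 4 libraries allow. The other replicates of each group took part in the choice, which favoured high shares in GATA2 libraries and low shares elsewhere. A GATA2 library was scored on regions chosen with 1 GATA2 library fewer, any other library on regions chosen with 1 other library fewer. The values therefore show how well replicates of a group matched, and no conclusion about GATA2 is drawn from p. The GATA2 values serve in all 3 comparisons, and each choice without 1 library shares the other 15 with the rest, so the values are not independent of one another.

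The absence from the ranked lists was not absence from the full lists. Of the 722 regions, 551 (76.3%) overlapped a weaker peak in at least 1 of the 12 other full lists, and 171 (23.7%) overlapped none. In each of the 12 lists, the share of the 722 with a weak peak was below that of all regions without a ranked peak in that library. The difference was -17.4 to -8.09 points in hi-77-/- empty, -18.4 to -9.91 in hi-77+/+ empty and -29.7 to -11.8 in 9aa-Ins libraries. The median over the 722 regions was 2 of 12 lists, 81 regions had a weak peak in 6 or more, 3 had one in 10 and none in 11 or 12. In 51 regions all 4 9aa-Ins lists had a weak peak, in 22 all 4 hi-77+/+ empty lists and in 7 all 4 hi-77-/- empty lists. Weak peaks were in 9aa-Ins lists alone for 121 regions, in hi-77+/+ empty lists alone for 117 and in hi-77-/- empty lists alone for 10. WGATAR was in 86.0% of the 171 without a weak peak, 80.2% of the 212 with one in 4 or more lists and 74.5% of the 51 with one in all 9aa-Ins lists.

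Counts over full lists depend on list length, so the groups were compared over ranks beyond 49000 up to 63924, the length of the shortest of the 12 lists. Weak peaks lay at 5.68%, 6.37%, 6.23% and 11.2% of the GATA2-only regions in hi-77-/- empty libraries (mean 7.38% ± 2.58, SD, n = 4), at 10.7%, 6.93%, 6.51% and 5.82% in hi-77+/+ empty (7.48% ± 2.17, SD, n = 4) and at 6.09%, 9.42%, 9.83% and 10.2% in 9aa-Ins libraries (8.90% ± 1.90, SD, n = 4). The groups overlapped. The 9aa-Ins mean was 1.52 percentage points above hi-77-/- empty and 1.42 above hi-77+/+ empty, each with p = 0.457 in a two-sided exact permutation test and 0.686 after adjustment over 3 comparisons. The hi-77+/+ empty mean was 0.104 points above hi-77-/- empty, with p = 0.829 in the exact permutation test and 0.829 adjusted. Thus no difference larger than the spread between replicates was found at equal list length. Over all regions without a ranked peak in the same library, the share with a peak at these ranks was 19.2% to 19.4% in hi-77-/- empty, 16.9% to 19.01% in hi-77+/+ empty and 21.2% to 26.3% in 9aa-Ins libraries. With that share subtracted in each library, the direction turned for 9aa-Ins, to -2.65 points against hi-77-/- empty and -4.11 against hi-77+/+ empty (exact permutation, adjusted p = 0.40 and 0.343). Regions open only with 9aa-Ins had one in 15.2% to 24.3% in the hi-77-/- empty libraries and in 2.61% to 5.87% in hi-77+/+ empty libraries. Over full lists the shares were 7.89% to 11.9% in hi-77-/- empty, 12.7% to 31.7% in hi-77+/+ empty and 15.8% to 43.9% in 9aa-Ins libraries, and there both 9aa-Ins (by 19.5 points) and hi-77+/+ empty (by 11.8 points) exceeded hi-77-/- empty (exact permutation, adjusted p = 0.0429 for each). Over all regions without a ranked peak, however, the full-list share rose more, from a mean of 23.95% in hi-77-/- empty to 37.1% in hi-77+/+ empty and 47.3% in 9aa-Ins libraries. With it subtracted, the GATA2-only regions stood at -13.8, -15.2 and -17.7 points, so the order of the groups turned.

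**Figure D5:**
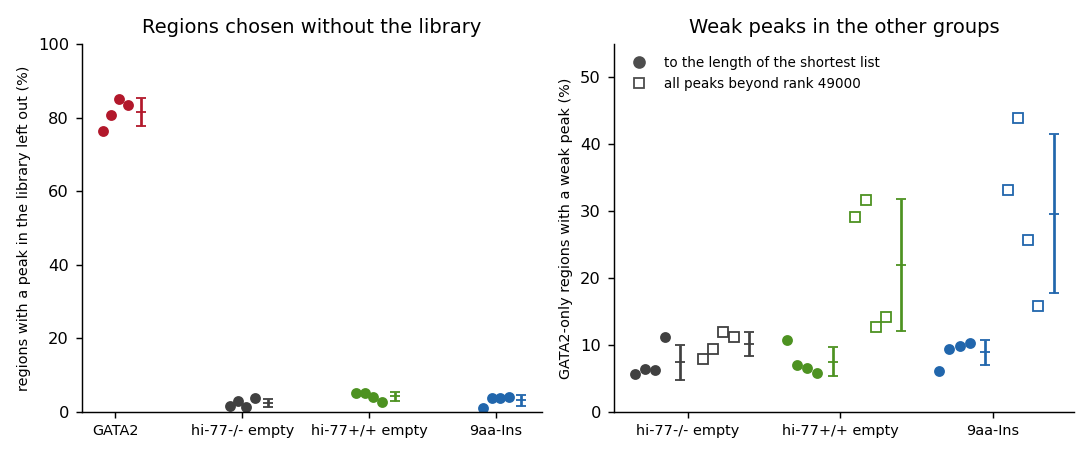
Left, share (%) of regions chosen without a library that have a ranked peak in it; right, share of the 722 GATA2-only regions with a weaker peak, beyond rank 49000 to the length of the shortest list (dots) or in the full list (squares); points are libraries and bars are mean ± SD. The GATA2 libraries sit between 76.3% and 85.1% and the others at or below 5.25%, whereas weak peaks at equal list length overlap between the 3 groups.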

How the data were processed

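ATAC-Seq was performed on 16 libraries in 4 groups of 4, and 1 peak list per library was used. Per the study's methods and the processing notes, the authors trimmed reads with Trim Galore 0.4.1, aligned them to mm10 (GRCm38) with Bowtie2 2.2.5, removed duplicates with Picard 2.26.0, shifted read ends for the transposase and called peaks per library with MACS2. The deposited score is an integer derived from the q-value. The fold enrichment is, as deposited, a ratio of summit pileup to a background that is constant within a library. Each peak's significance is deposited as −log10 of its p-value and of its q-value, and the summit is deposited relative to the peak start. Fold and −log10 p were used for ranking and description and not as amounts of signal between libraries. Depth is unknown.

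The 49000 peaks of highest −log10 p per library (ties by fold, then position) were merged at an overlap of 1 bp. Annotation was GENCODE release M21, and letters were searched on both strands in 100 bp on each side of the summit of the region's best-ranked peak in any library. Groups of libraries were tested by two-sided exact permutation, adjusted by Benjamini-Hochberg over 3 comparisons. The replicate numbers were checked for pairing, and correlations of same-numbered libraries ran from -0.0167 to 0.0129 in 24 pairs, so comparisons were unpaired. Named regions were the best 12 by median rank, up to 4 per gene list, and those at the 6 genes with most. Sequences were planned for 8 regions at most, those overlapping an untranslated region were left out, and 1 further region that the rule names is not reported here. The regions, gene lists and patterns were chosen with earlier results of these data known. Python 3.11.15, numpy 2.4.6, pandas 2.3.3, scipy 1.17.1, pysam 0.24.0 and matplotlib 3.10.9 were used, and the steps were tested on simulated peaks. Other list lengths, overlaps, windows, distances and left-out libraries were tried as alternatives.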

Additional observations from a re-analysis of the deposited data

Results flagged for a closer look

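Of 75 groups of 4 values that were looked at (49 named regions and 26 library measures), 5 had a value far from the other 3 by Dixon's criterion, which chance meets in about 1 group in 20. The share of GATA2-only regions with a weak peak beyond rank 49000, to the length of the shortest of the 12 lists, was 11.2% in hi-77-/- empty replicate 4, against 5.68%, 6.23% and 6.37% in the other replicates. The share of regions with a ranked peak in the library left out was 0.960% in 9aa-Ins replicate 1, against 3.73%, 3.73% and 3.99%.

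Among named regions, the rank in 1 GATA2 library stood apart at Agap1 (18061 in replicate 2, against 13448, 13761 and 13857), Csf2ra (46872 in replicate 1, against 19445, 19654 and 22083) and 1 of the Zfp608 regions (39649 in replicate 4, against 24856, 25649 and 25793). The library that stood apart was a different replicate in each of these 3 regions.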

How the results depend on the processing

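Of 182 alternative values computed, those that moved beyond the spread, the 95% interval of a share or the threshold are given here. That interval counts regions as independent, which they are not, so it served only to sort the values. The number of GATA2-only regions was 403 with 50% of those peaks per library, 297 with all deposited peaks, 299 with peaks of −log10 q of at least 5 and 171 where no weak peak was allowed elsewhere, and ran from 729 to 947 without 1 library. The share with WGATAR was 86.0% in the 171, 62.2% in windows of 100 bp, 91.6% in windows of 400 bp, 89.9% over whole regions and 52.5% for AGATAA alone, and ran from 80.2% to 83.6% without 1 library. The distal share was 90.8% with 50% of the peaks, 91.6% with all deposited peaks, 91.8% in the 171 and 95.4% at a limit of 1 kb. Composite elements were in 4.71%, 12.2% and 11.4% with windows of 100 bp, 400 bp and whole regions, and 4.16% with spacers of 7 to 9 bases. WGATAR was within 50 bp of a library's summit in 63.5% and within 10 bp in 16.5%.

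The differences between groups in held-out share, 79.0, 77.2 and 78.3 points, had p = 0.125 with the replicate block (exact sign flips), the smallest that 4 pairs allow. No same-numbered pair correlated above 0.1, so the numbers were treated as names in the main comparisons. Neither the labels nor the study's methods say whether a number marks a shared culture, infection or day. The same number gave the highest correlation in 7 of 24 pairs. These included all 4 pairs of GATA2 with 9aa-Ins, at correlations of 0.00815 to 0.0129. Without 1 library these differences were 66.5 to 79.1, 64.6 to 77.2 and 66.2 to 78.5 points. At weak peaks the differences over full lists were 19.5 (9aa-Ins minus hi-77-/- empty) and 11.8 points (hi-77+/+ empty minus hi-77-/- empty), past the threshold (exact permutation, adjusted p = 0.0429 for each). With the full-list share over all unranked regions subtracted, hi-77-/- empty, hi-77+/+ empty and 9aa-Ins stood at -13.8, -15.2 and -17.7 points, so their order turned. At equal list length, the same subtraction gave -2.65 points for 9aa-Ins minus hi-77-/- empty and -4.11 for 9aa-Ins minus hi-77+/+ empty. Without 1 library and without subtraction, the equal-length difference of hi-77+/+ empty minus hi-77-/- empty ran from -0.958 to 1.39 points. That of 9aa-Ins minus hi-77-/- empty ran from 0.958 to 2.80 and that of 9aa-Ins minus hi-77+/+ empty from 0.866 to 2.48 points. The cause of these changes was not tested. List length differs between libraries and depth is unknown, so weak regions limit what the lists can show.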

Other observations

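The share of all regions of a chromosome that were open only with GATA2 ran from 0.370% on chromosome 8 to 1.22% on chromosome 15, which held the regions at Ano6, Fyb, Csf2rb, Mtss1 and Eif3h named above. The 122 GATA2-only regions without WGATAR held the RUNX pattern TGTGGT in 41.8%, against 34.0% of the 600 with WGATAR, and the ETS pattern AGGAAG in 41.0% against 42.2%. Their median rank over the GATA2 libraries was 29954.5, against 30041.2 for those with WGATAR.

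A small class of 87 regions had a ranked peak in all GATA2 and all 9aa-Ins libraries and in none with an empty vector. WGATAR was in 63.3% of its distal regions and the C/EBP pattern TTGCNNAA in 39.2%, values that lie between those of regions open only with GATA2 (84.1% and 13.2%) and only with 9aa-Ins (16.3% and 42.9%). A class of 49 regions was open with GATA2 and in hi-77+/+ empty and in neither other group, and 61.2% of them held WGATAR. The median distance to the nearest region open in all 16 libraries was 18.5 kb for regions open only with GATA2, 22.3 kb for those open only with 9aa-Ins and 14.2 kb for those open only in hi-77+/+ empty.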
